A study of Danio rerio with 32 samples.

Results

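The comparison described here asks whether zebrafish tailbuds with 2 mutant copies of the gene for cohesin's Rad21 subunit answered a Wnt agonist differently from tailbuds with 1 mutant copy. Maternally supplied cohesin persists in the homozygotes at this stage, and Rad21 protein was not measured here. It is the response to BIO in *rad21-/-* tailbuds minus the response in *rad21+/-* tailbuds. The 16 libraries of the 4 groups that the comparison needs were used, of 32 libraries in all, and the wild type and *stag2b* libraries did not enter. RNA was sequenced from pools of 80 tailbuds at the 16-somite stage. The groups were *rad21-/-* with BIO, untreated *rad21-/-*, *rad21+/-* with BIO and untreated *rad21+/-*, with 4 pools in each. Both genotypes carried the nz171 point mutation of *rad21*, so the results describe that 1 line. BIO was given at 2.5 µM from 4 hours post-fertilization until dissection, and the untreated embryos were in E3 medium. Each tailbud was lysed alone and assigned to a genotype from DNA of the head. Nothing given for the pools says whether they came from separate clutches, so p-values measure the spread between these pools only.

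BIO (6-bromoindirubin-3'-oxime) inhibits Gsk3, the kinase that marks β-catenin for destruction, and thereby switches on canonical Wnt signalling. In the tailbud, Wnt signals maintain the neuromesodermal progenitors that supply spinal cord and paraxial mesoderm, and favour their mesodermal fate. Indirubins are also ligands of the aryl hydrocarbon receptor, a transcription factor that induces enzymes of foreign compound metabolism. Cohesin is the ring complex that holds sister chromatids together and forms chromatin loops, and Rad21 is the subunit that closes the ring.

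No gene passed 5% FDR for a difference between the 2 responses, while 2317 genes changed with BIO in *rad21-/-* and 1723 in *rad21+/-*. The *rad21* transcript itself (*rad21a*, GRCz11 chr16:48409066-48430272, minus strand) separated the genotypes in every pool. *rad21a* stood at 68.8, 50.6, 50.6 and 48.3 CPM (fragment counts scaled to a common library size) in *rad21-/-* pools with BIO, and at 54.2, 54.1, 44.5 and 65.7 CPM in untreated *rad21-/-* pools. It stood at 392, 376, 371 and 414 CPM in *rad21+/-* pools with BIO, and at 399.9, 400.8, 336 and 396 CPM in untreated *rad21+/-* pools. Every *rad21-/-* pool was below every *rad21+/-* pool, and within a genotype the BIO and untreated pools overlapped. The genotype difference was −2.83 on the log2 scale with BIO and −2.81 without it. The BIO response of *rad21a* in *rad21-/-* minus that in *rad21+/-* was −0.02 (95% interval −0.36 to 0.32).

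The 16 libraries held 33818548 to 115057368 counted fragments. Replicates differed far beyond counting noise, with a median SD of log2 CPM of 0.135 to 0.176 in the 4 groups. Of 9 tailbud markers, the transcription factor genes *tbxta*, *tbx16*, *msgn1*, *sox2* and *cdx4* averaged 154.3, 236.5, 409.7, 80.11 and 523.6 CPM in *rad21-/-* tailbuds with BIO. The rest were lower, with *noto* at 54.89, *hoxa13b* at 29.73 and *tbxtb* at 24.72 CPM in the same group, and *hoxb13a* was low in every group (0.6703, 1.314, 3.104 and 2.53 CPM in *rad21-/-* with BIO, untreated *rad21-/-*, *rad21+/-* with BIO and untreated *rad21+/-*). The 9 summed to 1480 to 1576 CPM and 1069 to 1393 CPM in *rad21-/-* pools with and without BIO, and to 1709 to 2090 CPM and 1334 to 1773 CPM in *rad21+/-* pools with and without BIO. Markers of other cells were present too. The 24 epidermal markers summed to 35070 to 50010 CPM in *rad21-/-* pools with BIO, against 51130 to 73330 CPM in untreated *rad21-/-* pools. The same sum was 42910 to 46760 CPM in *rad21+/-* pools with BIO, against 46520 to 67910 CPM in untreated *rad21+/-* pools. The 12 anterior neural markers summed to 67.5 to 90.4 CPM and 93.1 to 100.3 CPM in *rad21-/-* pools with and without BIO, and to 74.48 to 94.77 CPM and 89.33 to 114.7 CPM in *rad21+/-* pools with and without BIO, and 0 of the 12 passed in either genotype by edgeR's test (5 in *rad21-/-* and 2 in *rad21+/-* had an unadjusted p under 0.05). Of 10 ionocyte markers, 3 rose and 1 fell in *rad21-/-* (3.72% and 7.85% of all genes did) and 0 changed in *rad21+/-* by edgeR's quasi-likelihood test (5 in each genotype had an unadjusted p under 0.05). With the replicate number as a block 3 rose and 1 fell in *rad21-/-*, and 1 rose in *rad21+/-*. The median response of the 10 was below 0 in both genotypes, −0.17 in *rad21-/-* and −0.3 in *rad21+/-*. Among the 3 that rose was *dlc*, which is also in the list of segmentation clock genes. The 10 summed to 456.8 to 493.7 CPM in *rad21-/-* pools with BIO, against 379.9 to 393.1 CPM in untreated *rad21-/-* pools, and to 417.2 to 473.2 CPM in *rad21+/-* pools with BIO, against 392.7 to 443.9 CPM in untreated *rad21+/-* pools. In such bulk pools, fewer cells of a type and less RNA per cell cannot be told apart.

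Genes with long transcripts were lower with BIO in both genotypes. Of the 14115 genes whose mean log2 CPM was 1 or more, 633 had more than 8 kb of exon. Of these, 274 (43.3%) fell with BIO in *rad21-/-* and 182 (28.8%) in *rad21+/-*, against 10.2% and 7% of all 14115 genes. Their median log2 fold change was −0.32 in *rad21-/-* and −0.25 in *rad21+/-*. Genes of 1 to 2 kb had medians of 0.07 and 0.08 in the same order of genotypes. For single pools, each gene's log2 level was taken as a deviation from its mean over all pools used. The median deviation of genes over 8 kb minus that of genes of 1 to 2 kb was then formed. It was −0.33, −0.15, −0.10 and −0.22 in *rad21-/-* with BIO and −0.35, −0.11, −0.01 and −0.17 in *rad21+/-* with BIO. It was 0.11, 0.40, 0.12 and 0.11 in untreated *rad21-/-* and 0.15, 0.09, 0.35 and 0.14 in untreated *rad21+/-*. All 8 BIO pools were below 0 and all 8 untreated pools above it. Here 0 stands for the mean over the pools, not for equal levels of long and short genes. Low values in BIO pools raise those of untreated pools by this centring, so the opposite signs are not independent. The median difference in response between the genotypes was −0.06 over 8 kb and −0.03 at 1 to 2 kb. Spearman's rho with exon length over these genes was −0.23 for the *rad21-/-* response, −0.29 for the *rad21+/-* response and 0.06 for the difference. Whether RNA integrity or library fragment length differed between treated and untreated pools was not tested.

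**Figure D1:**
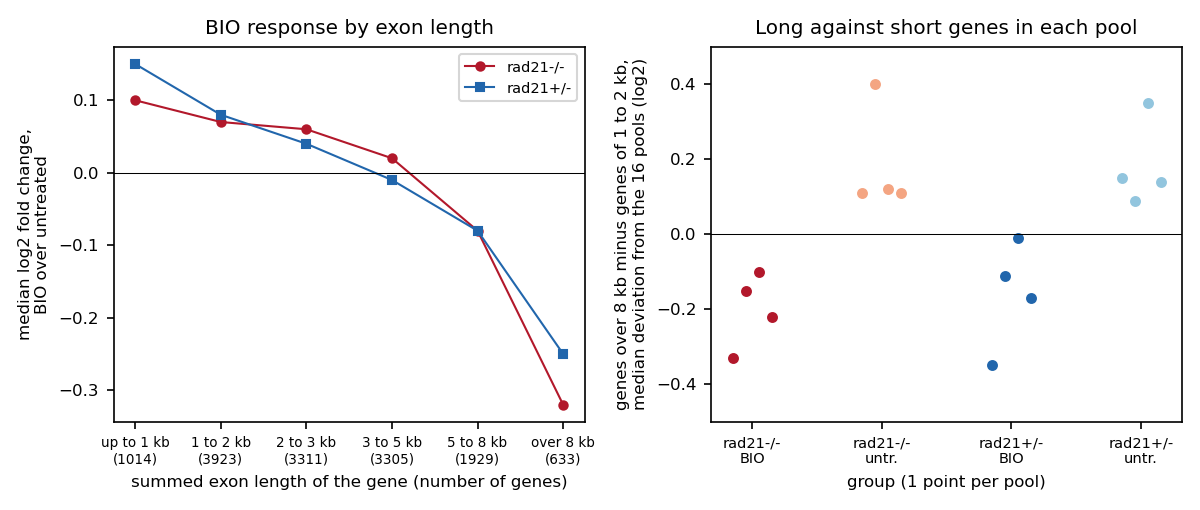
Left, median log2 fold change with BIO (y axis) by summed exon length (x axis, number of genes in brackets) in *rad21-/-* (red circles) and *rad21+/-* (blue squares). Right, genes over 8 kb minus genes of 1 to 2 kb in each pool (1 point per pool, 4 groups), as median deviations. Deviations are from each gene's mean log2 level over all pools used. The value was below 0 in all 8 pools with BIO and above 0 in all 8 untreated pools.

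With edgeR's quasi-likelihood test over 20016 genes and Benjamini-Hochberg adjustment, BIO changed 2317 genes (11.6%) in *rad21-/-* tailbuds, of which 745 (3.72%) were higher and 1572 (7.85%) lower. In *rad21+/-* tailbuds it changed 1723 genes (8.61%), of which 638 (3.19%) were higher and 1085 (5.42%) lower. Same-numbered *rad21+/-* pools with and without BIO deviated together, and with the replicate number as a block the *rad21+/-* response gave 2894 genes (14.5%), 1443 higher (7.21%) and 1451 lower (7.25%), so that the excess of lower genes was gone. Same-numbered *rad21-/-* pools with and without BIO did so only in part, with correlations of −0.0069 to 0.32 and 2 of 4 over 0.1. The same block gave 3335 genes in *rad21-/-* (16.7%), 1390 higher (6.94%) and 1945 lower (9.72%). Changes of at least 2-fold numbered 252 in *rad21-/-* and 110 in *rad21+/-*. The difference between the responses gave 0 genes at 5% FDR (0%), and the smallest adjusted p was 0.9997. At an unadjusted p under 0.05 it gave 581 genes (2.90%), 328 of them with a higher response in *rad21-/-* (1.64%) and 253 with a lower one (1.26%), and 3 genes had p under 0.001. If no gene differed and the p-values were exact, about 5% would have such a p. The 2.90% lies below that share, so the count shows no excess but cannot exclude one. The 581 became 980 without *rad21-/-* untreated replicate 3 and 958 without *rad21+/-* untreated replicate 3. Without replicate 3 of all 4 groups the number was 1440 of 20224 genes, which is more than 5%. In each of these 3 settings 0 genes passed 5% FDR. DESeq2's Wald test gave 0 genes (766 at an unadjusted p under 0.05) and limma's voom gave 0 (631). The number was also 0 without each library in turn. In 1 setting a gene passed, *lhx6b*, when the other 16 libraries of the series shared the fit.

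A count of 0 does not show that the responses were alike, so each difference is given with its 95% interval. These intervals are not adjusted for the number of genes, and one that leaves out 0 is not a call. Among the 14115 genes whose mean log2 CPM was 1 or more, the median standard error of the difference was 0.166. For 13268 of them (94%) the 95% interval lay within 1 log2 unit of no difference, and for 8079 (57.2%) within 0.5. The difference itself was at least 1 log2 unit in 42 of these genes, 16 of them with an unadjusted p under 0.05. Its median absolute size was 0.0974.

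The responses ran in 1 direction in both genotypes. They share no library. Of the genes called, 1033 passed in both (292 higher, 741 lower and 0 opposite), which is 44.6% of the *rad21-/-* genes and 60% of the *rad21+/-* genes. Over the 3007 genes called in either genotype, 98.2% had the same sign in both, against 76.8% of all genes tested. A further 1284 genes passed in *rad21-/-* alone, and 1251 of them had the same sign in *rad21+/-*. In *rad21+/-* alone 690 genes passed, 670 of them with the same sign in *rad21-/-*. Of these 1284 and 690 genes, 158 and 68 had an unadjusted p under 0.05 for the difference, where 2.90% of all genes did. Both sets were chosen, from the same libraries, for passing in 1 genotype and not in the other. Low p-values for the difference are therefore built into them, and nothing is read from these counts.

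Among the genes called, the size of the response was somewhat larger in *rad21-/-*, but this turned on single pools and on how the genes were chosen. Over the 3007 genes the median absolute log2 fold change was 0.444 in *rad21-/-* and 0.37 in *rad21+/-*, and 1918 genes (63.8%) had the larger change in *rad21-/-*. Of the 1284 genes called in *rad21-/-* alone, 1272 (99.1%) had the larger change there, against 1 of the 690 (0.145%) called in *rad21+/-* alone. The share over called genes therefore largely restates the numbers called in each genotype. Across these genes, which are not independent replicates, Pearson's r between the responses was 0.821 and Spearman's rho was 0.809. Over the 1033 genes called in both, the medians were 0.514 and 0.478, and r was 0.964. Over all 14115 genes above the level limit, which were not chosen for a response, the medians were 0.171 in *rad21-/-* and 0.169 in *rad21+/-*. Without *rad21-/-* untreated replicate 2 the share with the larger change in *rad21-/-* was 46.7%, and the count of genes changed in *rad21-/-* was 1179 in place of 2317. The count was 1519, 1425 and 1448 without *rad21-/-* BIO replicates 1, 2 and 4. In *rad21+/-* the count was 707, 832 and 907 without BIO replicates 1, 2 and 4, and 1083 and 742 without untreated replicates 1 and 4.

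**Figure D2:**
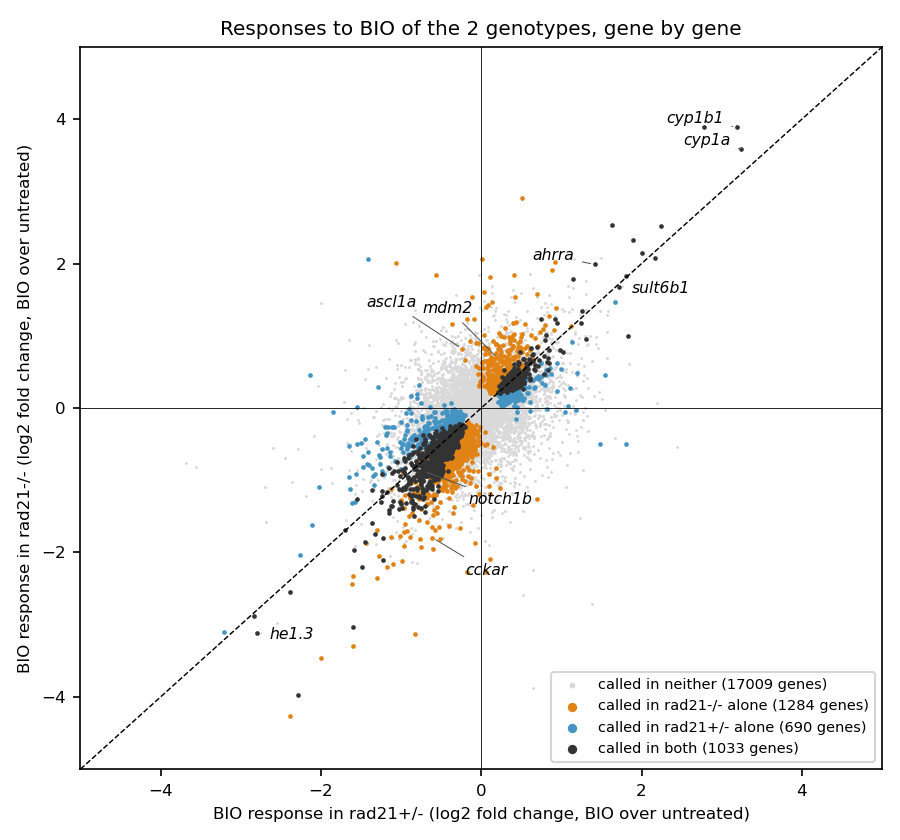
Log2 fold change with BIO in *rad21-/-* and in *rad21+/-* tailbuds, with 1 point per gene and colours for the genotypes in which a gene passed 5% FDR. The 1033 genes called in both genotypes follow the diagonal of equal response, and none of them changed in opposite directions.

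Genes of the aryl hydrocarbon receptor battery were among the strongest increases. Of its 13 tested genes, the same 5 rose in both genotypes: *cyp1a*, *cyp1b1*, *ahrra*, *sult6b1* and *tiparp*. The share of all genes that rose was 3.72% in *rad21-/-* and 3.19% in *rad21+/-*. None of the 13 differed in response at an unadjusted p under 0.05, and the median difference was 0.0022, beside −0.006 over all genes. *cyp1a*, which encodes a cytochrome P450 that oxidizes aromatic hydrocarbons (chr18:5588068-5598958), stood at 3126, 3640, 3752 and 2835 CPM in *rad21-/-* pools with BIO, against 47.0, 84.0, 451 and 529 CPM in untreated *rad21-/-* pools. It stood at 3296, 3111, 3237 and 2935 CPM in *rad21+/-* pools with BIO, against 462, 527, 91.3 and 249 CPM in untreated *rad21+/-* pools. All BIO pools were alike and far above all untreated pools, which spread over more than 10-fold among themselves. The fitted response was 3.59 (SE 0.74, adjusted p = 0.00838) in *rad21-/-* and 3.24 (SE 0.73, adjusted p = 0.0198) in *rad21+/-*. The difference of 0.34 had a 95% interval of −1.70 to 2.39.

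*cyp1b1*, another P450 of the same family (chr13:42011285-42018948), had the same shape. It measured 159, 234, 266 and 130 CPM in *rad21-/-* pools with BIO, against 2.22, 3.97, 25.1 and 22.1 CPM in untreated *rad21-/-* pools. The *rad21+/-* pools held 151, 167, 170 and 120 CPM with BIO, against 20.4, 27.6, 5.82 and 12.4 CPM untreated. The lowest untreated pools were those in which *cyp1a* was lowest too. The receptor's repressor gene *ahrra* measured 7.82, 6.60, 6.35 and 5.55 CPM in *rad21-/-* pools with BIO, against 1.01, 1.40, 1.68 and 2.56 CPM in untreated *rad21-/-* pools. It measured 4.66, 4.05, 4.55 and 2.77 CPM in *rad21+/-* pools with BIO, against 2.24, 1.48, 0.463 and 1.79 CPM in untreated *rad21+/-* pools. BIO and untreated pools did not overlap in either genotype, and the difference in response was 0.57 (95% interval −0.41 to 1.55).

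The sulfotransferase gene *sult6b1* varied less between pools, with responses of 1.68 in *rad21-/-*, 1.72 in *rad21+/-* and a difference of −0.03 (95% interval −0.41 to 0.34). *tiparp*, a target that encodes an ADP-ribosyltransferase, rose by 0.34 in *rad21-/-* and 0.48 in *rad21+/-*. *arnt*, the receptor's partner, fell by 0.39 in *rad21+/-* alone and measured −0.25 in *rad21-/-* (adjusted p = 0.057), with a difference of 0.14 (95% interval −0.11 to 0.38). The receptor gene *ahr2* measured 0.13 in *rad21-/-* and 0.18 in *rad21+/-*, neither past the threshold. Outside the list, a Fox gene known here by the name of its orthologue FOXQ1 rose by 1.83 in *rad21-/-* and by 1.80 in *rad21+/-*, and *ugt1a1*, which encodes a glucuronosyltransferase, rose by 1.35 and 1.25 in the same order of genotypes. Both were picked outside the rule for named genes, so nothing is read from them about the battery. In *rad21+/-* the calls of *cyp1a* and *cyp1b1* were lost without untreated replicate 4 and those of *ahrra* and *ugt1a1* without BIO replicate 1, so that 3 and 4 of the 5 battery calls remained without these libraries. Without replicates 1, 2, 3 and 4 of all 4 groups, 2, 2, 2 and 1 battery genes rose in *rad21+/-*. In *rad21-/-* 5, 2, 5 and 4 rose in the same order of omissions.

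Oxidative stress genes responded beside the battery. Of 16 tested, 7 rose in *rad21-/-* and 6 in *rad21+/-*, with 6 in common and a median difference of −0.051. The difference ran from −0.314 to 2.4, and 2 of the 16 had an unadjusted p under 0.05 with a higher response in *rad21-/-* (1.64% of all genes did). The share of all genes that rose was 3.72% in *rad21-/-* and 3.19% in *rad21+/-*. *nfe2l2a*, which encodes the stress regulator Nrf2 (chr9:1654284-1683368), measured 20.04, 22.3, 21.1 and 16.2 CPM in *rad21-/-* pools with BIO, against 8.90, 10.9, 10.6 and 10.9 CPM in untreated *rad21-/-* pools. *nfe2l2a* measured 22.6, 27.1, 31.6 and 23.02 CPM in *rad21+/-* pools with BIO, against 15.7, 13.9, 16.1 and 14.6 CPM in untreated *rad21+/-* pools. BIO pools were above untreated pools in both genotypes, and *rad21-/-* was the lower genotype in both states. Its log2 response was 0.95 in *rad21-/-* and 0.79 in *rad21+/-*, and the difference was 0.15 (95% interval −0.20 to 0.50). Its paralogue *nfe2l2b* rose by 1.02 and 0.80, and the peroxiredoxin gene *prdx1* by 0.85 and 0.69. The glutathione transferase gene *gstp1* rose by 0.47 in *rad21-/-* and by 0.79 in *rad21+/-* (difference −0.31, 95% interval −0.69 to 0.06).

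Wnt feedback genes, which β-catenin and TCF/LEF proteins switch on, had medians near 0 in both genotypes. Of 18 tested, 1 rose in *rad21-/-* (3.72% of all genes rose) and 0 changed in *rad21+/-* (edgeR's quasi-likelihood test). At an unadjusted p under 0.05 the counts were 7 and 4 in the same order of genotypes. DESeq2 called 2 higher and 1 lower in *rad21-/-* and 1 higher in *rad21+/-*, and voom called 1 higher in *rad21-/-* and 0 in *rad21+/-*. With the replicate block 4 rose in *rad21-/-* and 2 in *rad21+/-*. The median log2 fold change was 0.052 in *rad21-/-* and 0.031 in *rad21+/-*, beside 0.013 and −0.0031 over all genes, and the median difference was 0.032. *axin2*, the destruction complex gene widely used as a Wnt readout (chr3:55627948-55650771), measured 115, 112, 98.6 and 113 CPM in *rad21-/-* pools with BIO, against 119, 114, 110 and 114 CPM in untreated *rad21-/-* pools. It measured 109, 107, 105 and 111 CPM in *rad21+/-* pools with BIO, against 117, 107, 95.6 and 101 CPM in untreated *rad21+/-* pools. The 4 groups overlapped. The difference of −0.10 had a 95% interval of −0.31 to 0.11. The TCF/LEF gene *lef1* measured 0.19 in *rad21-/-* and 0.12 in *rad21+/-*, with a difference of 0.07 (95% interval −0.22 to 0.36).

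*sp5l*, a transcription factor gene that Wnt induces in the tailbud (chr23:28023091-28025943), measured 370, 312, 306 and 303 CPM in *rad21-/-* pools with BIO, against 292, 256, 277 and 275 CPM in untreated *rad21-/-* pools. Values in *rad21+/-* pools were 245, 249, 215 and 210 CPM with BIO, against 221, 205, 176 and 181 CPM untreated. *rad21-/-* pools with BIO were above all others, but the response was the same 0.23 in both genotypes and passed in neither by edgeR's test (adjusted p = 0.101 in *rad21-/-* and 0.111 in *rad21+/-*). Both passed with the replicate block (adjusted p = 0.0271 in *rad21-/-* and 0.0255 in *rad21+/-*). The genotype difference was 0.49 with and without BIO.

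The Wnt feedback gene that rose in *rad21-/-* was *tnfrsf19*, a receptor of the tumour necrosis factor family (chr15:8235531-8309217). It measured 24.9, 26.2, 27.4 and 28.6 CPM in *rad21-/-* pools with BIO, against 17.7, 20.4, 20.5 and 23.2 CPM in untreated *rad21-/-* pools. *tnfrsf19* measured 55.6, 53.4, 55.5 and 55.2 CPM in *rad21+/-* pools with BIO, against 50.6, 62.5, 49.8 and 53.2 CPM in untreated *rad21+/-* pools. The *rad21-/-* pools with BIO were all above their untreated pools, the *rad21+/-* pools overlapped, and all *rad21-/-* pools stayed below all *rad21+/-* pools. The log2 fold change was 0.39 (SE 0.09, adjusted p = 0.0082) in *rad21-/-* and 0.02 (adjusted p = 0.899) in *rad21+/-*. The difference of 0.37 (95% interval 0.10 to 0.63) did not pass adjustment. *dact1*, a gene for a Dishevelled-binding regulator, had a difference of 0.29 (95% interval 0.04 to 0.55) from responses of 0.14 and −0.15 that passed in neither genotype.

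Of 19 Wnt ligand genes tested, 5 fell in each genotype, 3 of them in both (*wnt3a*, *wnt7ab* and *wnt9a*), and none rose, where 7.85% of all genes fell in *rad21-/-* and 5.42% in *rad21+/-*. The other 14 of each genotype did not pass. With the replicate block 4 fell in each genotype. The median was −0.35 in *rad21-/-* and −0.30 in *rad21+/-*, with a median difference of 0.032. *wnt3a*, a ligand of canonical signalling in the tailbud (chr2:3106237-3158919), measured 2.73, 2.76, 3.35 and 2.67 CPM in *rad21-/-* pools with BIO, against 5.23, 5.40, 4.50 and 3.83 CPM in untreated *rad21-/-* pools. *wnt3a* measured 7.10, 7.24, 8.02 and 6.32 CPM in *rad21+/-* pools with BIO, against 11.9, 9.74, 9.19 and 9.58 CPM in untreated *rad21+/-* pools. BIO pools were below untreated pools in both genotypes with no overlap, and every *rad21-/-* pool was below every *rad21+/-* pool. The fitted response was −0.72 (SE 0.14, adjusted p = 0.00218) in *rad21-/-* and −0.49 (SE 0.13, adjusted p = 0.0251) in *rad21+/-*, and the difference was −0.23 (95% interval −0.62 to 0.16).

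*wnt7ab* fell by 1.46 in *rad21-/-* and by 1.15 in *rad21+/-*, where the call was lost with the replicate block (adjusted p = 0.0505), and *wnt9a* fell by 0.90 and 1.11. *wnt5a*, a ligand of non-canonical signalling, fell by 0.49 in *rad21-/-* and measured −0.10 in *rad21+/-* (difference −0.38, 95% interval −0.79 to 0.03). *wnt16*, another ligand gene (chr4:10706755-10713584), was the one member with an unadjusted p under 0.05 for the difference. It measured 7.92, 8.09, 10.95 and 5.27 CPM in *rad21-/-* pools with BIO, against 5.72, 9.07, 14.5 and 11.9 CPM in untreated *rad21-/-* pools. The *rad21+/-* pools held 4.90, 7.17, 5.30 and 3.69 CPM with BIO, against 12.7, 11.3, 13.7 and 10.3 CPM untreated. Only the *rad21+/-* groups were apart, with a fall of 1.17 (adjusted p = 0.014), and the *rad21-/-* value was −0.35 (adjusted p = 0.413). The difference was 0.82 (95% interval 0.05 to 1.59), unadjusted. The ligand counts were sensitive to single pools. In *rad21-/-* 1 gene was left without BIO replicate 4 or untreated replicate 2, and 2 without BIO replicate 1 or 2. In *rad21+/-* 1 was left without BIO replicate 1, 2 or 4 or untreated replicate 4, and 2 without untreated replicate 1.

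Of 25 Wnt receptor and secreted inhibitor genes, 1 rose and 1 fell in *rad21-/-* (3.72% and 7.85% of all genes did), and 0 changed in *rad21+/-* (2 had an unadjusted p under 0.05). The one that fell was *sfrp2*, which encodes a secreted Wnt-binding protein (chr1:25491324-25496133). *sfrp2* measured 3.53, 3.93, 4.40 and 4.47 CPM in *rad21-/-* pools with BIO, against 7.36, 7.21, 6.62 and 6.30 CPM in untreated *rad21-/-* pools. *sfrp2* measured 6.97, 7.68, 5.51 and 6.201 CPM in *rad21+/-* pools with BIO, against 6.42, 5.74, 7.54 and 8.86 CPM in untreated *rad21+/-* pools. Only the *rad21-/-* pools with BIO stood apart, below the other 12. Its log2 response was −0.75 (SE 0.14, adjusted p = 0.00233) in *rad21-/-* and −0.11 (adjusted p = 0.674) in *rad21+/-*, and the difference was −0.64 (95% interval −1.06 to −0.22), also unadjusted. The genotypes differed in *sfrp2* with BIO (−0.70, adjusted p = 0.00279) and not detectably without it (−0.05, adjusted p = 0.874). The one that rose was the Frizzled receptor gene *fzd9b*, by 0.55 in *rad21-/-* beside 0.08 in *rad21+/-* (difference 0.47, 95% interval 0.02 to 0.93).

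Among 23 core pathway genes, 2 rose and 3 fell in *rad21-/-* and 1 rose in *rad21+/-*, where 3.72% of all genes rose and 7.85% fell in *rad21-/-* and 3.19% rose in *rad21+/-*. Nothing is read from counts this small. With the replicate block 3 rose and 3 fell in *rad21-/-*, and 3 rose and 1 fell in *rad21+/-*. *pygo2*, a nuclear partner of β-catenin, rose by 0.31 in both. The Gsk3 gene *gsk3ab* rose by 0.27 in *rad21-/-* and measured 0.23 in *rad21+/-* (adjusted p = 0.0595, and 0.0167 with the block). The β-catenin gene *ctnnb2* fell by 0.28 in *rad21-/-* and measured −0.16 in *rad21+/-*. No core gene had an unadjusted p under 0.05 for the difference.

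Of 22 progenitor and early mesoderm genes of the tailbud, 1 rose in *rad21-/-*, beside 3.72% of all genes, and 0 changed in *rad21+/-* by edgeR's quasi-likelihood test (5 in each genotype had an unadjusted p under 0.05). With the replicate block 2 rose in each genotype. The median was 0.17 in *rad21-/-* and 0.18 in *rad21+/-*, and the difference ran from −1.29 to 0.256 with a median of −0.025. The gene that rose was the paraxial mesoderm factor *tbx6* (0.37, adjusted p = 0.0204, beside 0.26, adjusted p = 0.101, in *rad21+/-*), whose call was lost without *rad21-/-* BIO replicate 1, 2 or 4 or untreated replicate 1. *tbxta*, the Brachyury gene of notochord and progenitors (chr19:14187540-14191592), measured 161, 161, 152 and 143 CPM in *rad21-/-* pools with BIO, against 113, 120, 154 and 152 CPM in untreated *rad21-/-* pools. Values in *rad21+/-* pools were 225, 246, 204 and 193 CPM with BIO, against 202, 204, 169 and 155 CPM untreated. Treated and untreated pools overlapped in both genotypes. The responses were 0.20 and 0.25, and their difference was −0.05 (95% interval −0.38 to 0.28).

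*msgn1*, which commits cells to paraxial mesoderm (chr4:306036-308006), measured 407, 381, 457 and 393 CPM in *rad21-/-* pools with BIO, against 346, 245, 367 and 345 CPM in untreated *rad21-/-* pools. *msgn1* measured 547, 705, 692 and 505 CPM in *rad21+/-* pools with BIO, against 523, 450, 567 and 361 CPM in untreated *rad21+/-* pools. Only the *rad21-/-* groups did not overlap, but neither response passed (0.33 with adjusted p = 0.149, and 0.37 with adjusted p = 0.121), and the difference was −0.03 (95% interval −0.46 to 0.40). *sox2*, the neural partner of *tbxta* in neuromesodermal progenitors (chr22:37347896-37349967), measured 91.6, 74.7, 75.1 and 79.1 CPM in *rad21-/-* pools with BIO, against 76.2, 54.9, 71.5 and 53.9 CPM in untreated *rad21-/-* pools. *sox2* measured 52.0, 56.6, 56.8 and 52.5 CPM in *rad21+/-* pools with BIO, against 50.4, 46.7, 46.3 and 36.6 CPM in untreated *rad21+/-* pools. Treated and untreated *sox2* values overlapped in *rad21-/-* and did not in *rad21+/-*, where the response still missed the threshold (0.28, adjusted p = 0.14, and 0.048 with the replicate block). *sox2* was higher in *rad21-/-* in both states (0.56 with BIO, adjusted p = 0.00309, and 0.51 untreated, adjusted p = 0.00582), and the responses differed by 0.04 (95% interval −0.30 to 0.39).

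The intermediate filament gene *vimr2*, which marks mesoderm formation in the tailbud, measured 0.01 in *rad21-/-* and 0.16 in *rad21+/-*, with a difference of −0.15 (95% interval −0.66 to 0.35). *cdx4*, a regulator of posterior identity, had a difference of 0.00.

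Of 27 segmentation clock and somite boundary genes, 4 rose and 3 fell in *rad21-/-*, and 3 rose and 3 fell in *rad21+/-*. With the replicate block 7 rose and 3 fell in *rad21-/-*, and 8 rose and 3 fell in *rad21+/-*. With that block 6.94% of all genes rose and 9.72% fell in *rad21-/-*, and 7.21% rose and 7.25% fell in *rad21+/-*. Without the block 3.72% of all genes rose and 7.85% fell in *rad21-/-*, and 3.19% rose and 5.42% fell in *rad21+/-*. Nothing is read from counts this small. Beside *her1* and *her7*, *dlc* rose by 0.41 and *lfng* by 0.31 in *rad21-/-*. The oscillator *her7* (chr5:68807170-68808485) measured 79.2, 78.3, 70.9 and 87.8 CPM in *rad21-/-* pools with BIO, against 61.3, 50.1, 61.4 and 66.9 CPM in untreated *rad21-/-* pools. The *rad21+/-* pools held 114, 101, 84.8 and 96.9 CPM with BIO, against 75.9, 82.7, 68.4 and 68.8 CPM untreated. BIO pools were above untreated pools in both genotypes without overlap, with log2 fold changes of 0.40 in *rad21-/-* and 0.42 in *rad21+/-* and a difference of −0.02 (95% interval −0.33 to 0.28). The *her7* calls were lost without BIO replicate 4 or untreated replicate 2 in *rad21-/-*, and without BIO replicate 1 or untreated replicate 4 in *rad21+/-*. Its partner *her1* rose by 0.40 in *rad21-/-* and measured 0.29 in *rad21+/-* (adjusted p = 0.0617, and 0.0261 with the block), with a difference of 0.10 (95% interval −0.18 to 0.39).

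The genes that fell were Notch receptors. *notch1b* (chr5:65679595-65782785) measured 37.2, 37.2, 38.5 and 40.0 CPM in *rad21-/-* pools with BIO, against 61.5, 92.8, 63.8 and 61.2 CPM in untreated *rad21-/-* pools. *notch1b* measured 30.2, 37.4, 50.7 and 42.8 CPM in *rad21+/-* pools with BIO, against 72.7, 57.6, 70.29 and 65.9 CPM in untreated *rad21+/-* pools. No BIO pool reached an untreated pool. The log2 fold change was −0.87 in *rad21-/-* and −0.73 in *rad21+/-*, and the difference was −0.14 (95% interval −0.57 to 0.28). *notch3* fell by 0.69 and 0.54, and *notch1a* by 0.54 and 0.29 (difference −0.25, 95% interval −0.50 to −0.01). These are long transcripts, with 7908 bases of exon in *notch1b*, 11783 in *notch3* and 8382 in *notch1a*. After a trend with exon length was taken out of each library, the *rad21+/-* calls of *notch3* and *notch1a* were lost. That of *notch1a* was also lost in 7 of 16 omissions of 1 library.

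Hox genes rose in a few members in both genotypes. Of 13 anterior Hox genes, 3 rose in *rad21-/-* and 2 in *rad21+/-* (4 and 3 with the replicate block). Of 31 middle and posterior genes 4 rose in *rad21-/-* and 3 in *rad21+/-* (5 in each with the replicate block). By comparison, 3.72% of all genes rose in *rad21-/-* and 3.19% in *rad21+/-* (6.94% and 7.21% with the block). *hoxb2a* rose by 0.60 and 0.46, *hoxb3a* by 0.43 and 0.26, and *hoxc6b* by 0.69 and 0.53. The *rad21+/-* calls of *hoxb3a* and *hoxc6b* were lost in 8 and 6 of 16 omissions of 1 library. The median difference was 0.09 in the anterior list and −0.0039 in the other, and no Hox gene of the 2 lists had an unadjusted p under 0.05 for the difference.

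DNA damage and growth arrest genes, motile cilium genes and epidermal markers were the lists whose counts of calls were farthest apart between the genotypes, although no member's difference passed adjustment. This order is by number of calls and not by share, so it depends on list size. The order and the differences rest on the same libraries, so a lean of the difference in these 3 lists is partly built in. Members of a list are not independent replicates. Of 10 ionocyte markers 3 rose and 1 fell in *rad21-/-* (3.72% and 7.85% of all genes did) and 0 changed in *rad21+/-*, with 5 in each genotype at an unadjusted p under 0.05. The ionocyte medians were −0.17 in *rad21-/-* and −0.3 in *rad21+/-*. Of 27 AP-1 and immediate early genes 5 fell in *rad21-/-* and 0 in *rad21+/-*, where 7.85% and 5.42% of all genes fell. Their medians were close, −0.29 in *rad21-/-* and −0.26 in *rad21+/-*, and 5 had an unadjusted p under 0.05 in *rad21+/-*. Of 22 DNA damage and growth arrest genes tested, 7 rose in *rad21-/-* (3.72% of all genes rose) and 0 changed in *rad21+/-* by edgeR's quasi-likelihood test, and none fell. At an unadjusted p under 0.05, 12 differed in *rad21-/-* and 4 in *rad21+/-*. DESeq2 called 10 higher and 2 lower in *rad21-/-* and 1 and 1 in *rad21+/-*, and voom called 8 higher in *rad21-/-* and 0 in *rad21+/-*. With the replicate block 10 rose and 1 fell in *rad21-/-*, and 1 rose and 1 fell in *rad21+/-*. The median response over the list was 0.081 in *rad21-/-* and −0.024 in *rad21+/-*, near the 0.013 and −0.0031 over all genes. The difference ran from −0.289 to 0.651 and was above 0 in 17 of the 22, beside 9738 of 20016 over all genes, with a median of 0.25, and 4 had an unadjusted p under 0.05 (1.64% of all genes did in this direction). *mdm2*, which encodes a ubiquitin ligase that is induced after DNA damage (chr4:23125689-23136195), measured 175, 173, 165 and 144 CPM in *rad21-/-* pools with BIO, against 91.4, 98.01, 112 and 106 CPM in untreated *rad21-/-* pools. Values in *rad21+/-* pools were 142, 146, 129 and 105 CPM with BIO, against 98.5, 125, 118 and 111 CPM untreated. The *rad21-/-* pools with BIO lay well above their untreated pools, and the *rad21+/-* groups overlapped. The fitted response was 0.69 (SE 0.10, adjusted p = 0.000456) in *rad21-/-* and 0.21 (SE 0.10, adjusted p = 0.218) in *rad21+/-*. The difference of 0.48 (95% interval 0.17 to 0.79) did not pass adjustment.

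*cdkn1a*, the cell cycle inhibitor p21 (chr22:603382-607812), measured 23.1, 22.2, 27.4 and 16.8 CPM in *rad21-/-* pools with BIO, against 16.3, 15.9, 17.99 and 14.2 CPM in untreated *rad21-/-* pools. *cdkn1a* measured 16.1, 17.5, 16.4 and 10.9 CPM in *rad21+/-* pools with BIO, against 13.4, 16.98, 16.7 and 15.9 CPM in untreated *rad21+/-* pools. The groups overlapped in both genotypes. Its log2 response was 0.48 (adjusted p = 0.041) in *rad21-/-* and −0.04 (adjusted p = 0.889) in *rad21+/-*, with a difference of 0.52 (95% interval 0.09 to 0.95). The *cdkn1a* call was lost in 7 of 16 omissions of 1 library, with all 32 libraries in the fit, with voom and with the exon length trend removed.

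Of the other 5 called members, *phlda3*, an inhibitor of Akt, rose by 0.80 in *rad21-/-* beside 0.33 in *rad21+/-* (95% interval 0.01 to 0.93 for the difference), the stress gene *gadd45aa* by 0.86 beside 0.39 (95% interval −0.05 to 0.99), and the cyclin gene *ccng1* by 0.44 beside 0.24 (95% interval −0.05 to 0.45), which also passed in *rad21+/-* with the replicate block (adjusted p = 0.026). The caspase gene *casp8* rose by 0.40 beside 0.10 (95% interval −0.06 to 0.67) and the ribosomal protein-like gene *rps27l* by 0.44 beside 0.12 (95% interval −0.09 to 0.72), calls that were lost in 8 and 12 of 16 omissions of 1 library. The count of 7 became 4 without *rad21-/-* BIO replicate 1, BIO replicate 2 or untreated replicate 2, and with all 32 libraries in the fit, and 1 without replicate 2 of all 4 groups. The median difference was 0.18 to 0.3 without each library in turn.

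**Figure D3:**
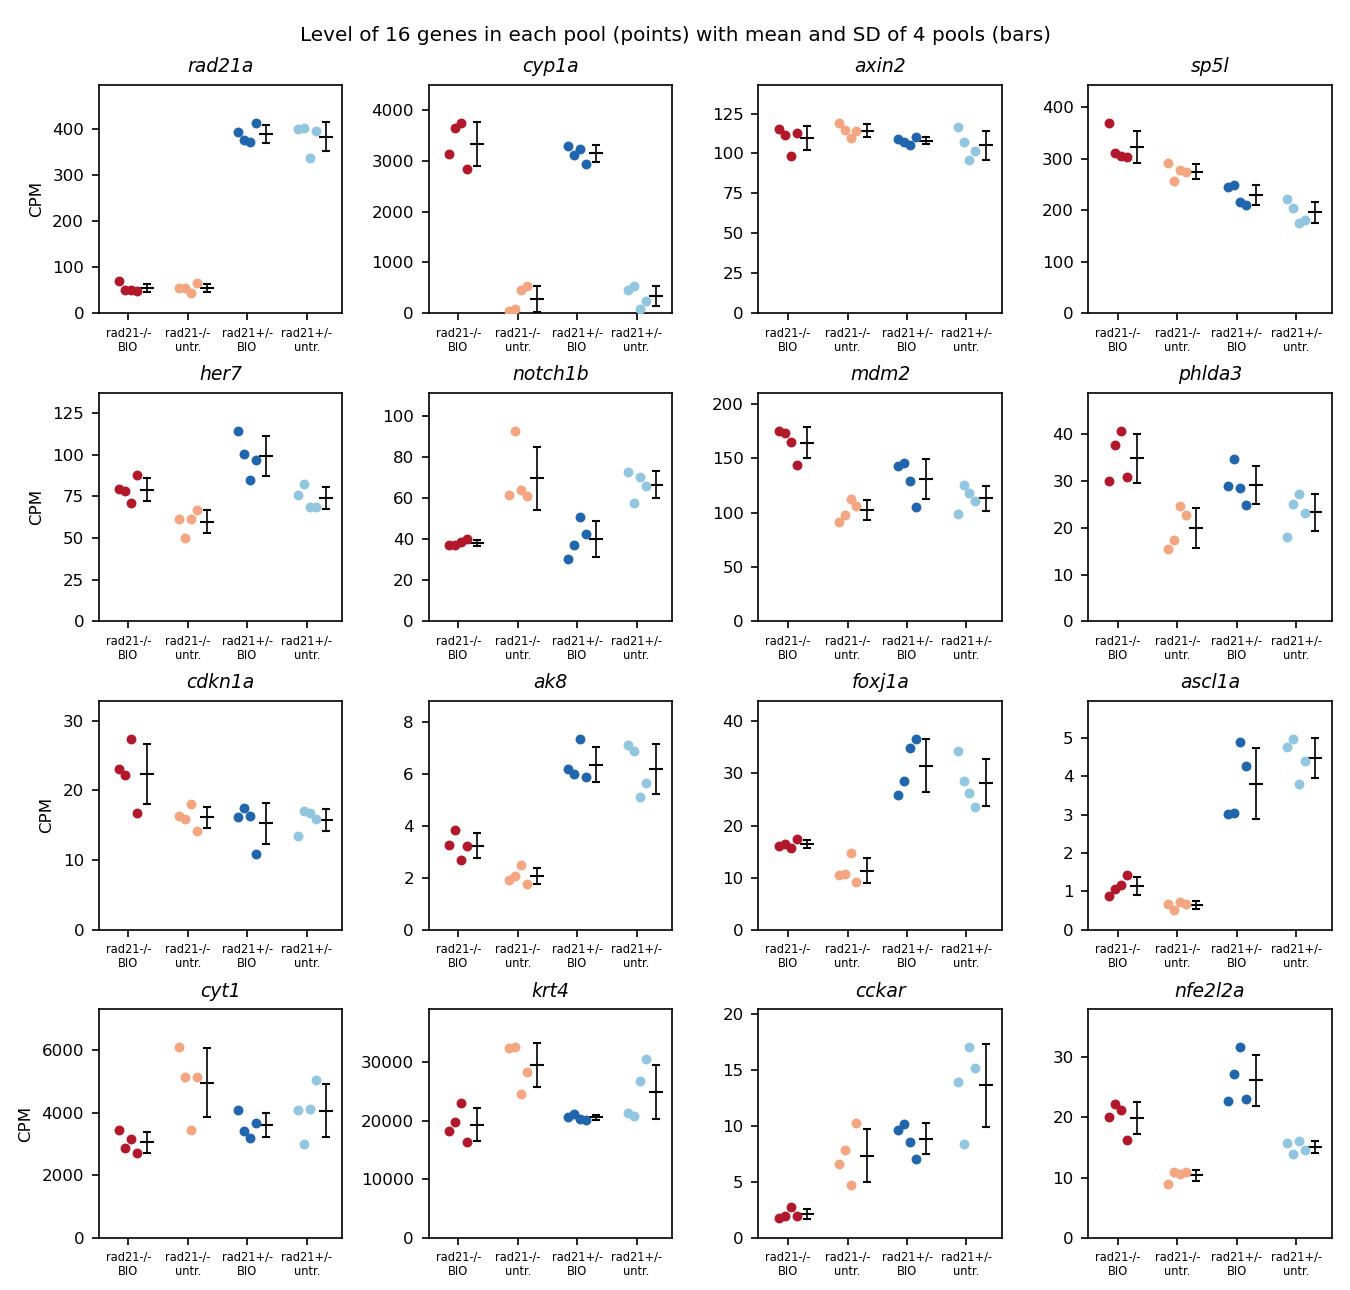
CPM of 16 genes in the 16 pools (y axis, 1 panel per gene, 1 point per pool, with the mean and SD of 4 pools as bars), with *rad21-/-* left of *rad21+/-* and BIO left of untreated within each. *cyp1a* separates by treatment, *rad21a* by genotype, and *mdm2* shows its widest gap between treated and untreated pools in *rad21-/-*.

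Motile cilium genes leaned upward in *rad21-/-*. Of 69 tested, 8 rose and 1 fell in *rad21-/-*, and 0 rose and 1 fell in *rad21+/-* by edgeR's quasi-likelihood test. By comparison, 3.72% of all genes rose and 7.85% fell in *rad21-/-*, and 3.19% rose and 5.42% fell in *rad21+/-*. At an unadjusted p under 0.05, 29 differed in *rad21-/-* and 11 in *rad21+/-*, and DESeq2 called 14 higher in *rad21-/-* and 1 in *rad21+/-*, and voom 8 and 0. With the replicate block 12 rose and 1 fell in *rad21-/-*, and 1 rose and 2 fell in *rad21+/-*. The median response was 0.31 in *rad21-/-* and 0.036 in *rad21+/-*. The difference was above 0 in 63 of 69 genes, beside 9738 of 20016 over all genes, with a median of 0.21. In this direction 9 had an unadjusted p under 0.05 (1.64% of all genes did). These genes were low in *rad21-/-* to begin with. In untreated tailbuds 55 of the 69 were lower in *rad21-/-* than in *rad21+/-* (6.69% of all genes were), with a median of −1.2. With BIO 45 of the 69 were lower (6.2% of all genes), with a median of −0.88. The 2 genotype comparisons and the difference in response rest on the same pools. The list was also brought forward for its counts of calls in these pools, so the lean of the difference is partly built in.

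*foxj1a*, the master regulator of motile ciliogenesis (chr3:60716904-60733722), measured 16.1, 16.5, 15.8 and 17.4 CPM in *rad21-/-* pools with BIO, against 10.6, 10.8, 14.8 and 9.23 CPM in untreated *rad21-/-* pools. *foxj1a* measured 25.8, 28.6, 34.9 and 36.6 CPM in *rad21+/-* pools with BIO, against 34.3, 28.6, 26.3 and 23.7 CPM in untreated *rad21+/-* pools. BIO pools were above untreated pools in *rad21-/-* and overlapped with them in *rad21+/-*. The *rad21-/-* response of 0.54 passed (adjusted p = 0.0195), and the difference of 0.38 had an interval that held 0 (−0.04 to 0.79). The adenylate kinase gene *ak8* rose by 0.65 in *rad21-/-* beside 0.04 in *rad21+/-* (95% interval 0.17 to 1.06 for the difference), *armc3* by 0.67 beside 0.16 (95% interval 0.09 to 0.92) and the cilium assembly gene *daw1* by 0.65 beside 0.34 (95% interval −0.14 to 0.76). *hydin*, which encodes a central pair protein and has 15817 bases of exon, fell by 0.77 in *rad21-/-* and by 0.80 in *rad21+/-*, and passed in neither once the exon length trend was removed. The 8 calls in *rad21-/-* became 3 without untreated replicate 2 and 5 without BIO replicate 1 or 4 or with all 32 libraries in the fit. They became 0 without replicate 1, without replicate 2 or without replicate 4 of all 4 groups, and 11 without replicate 3. The 9 genes at an unadjusted p under 0.05 became 4 without *rad21-/-* BIO replicate 1 or *rad21+/-* BIO replicate 2 and 5 without *rad21+/-* untreated replicate 1. The median difference was 0.16 to 0.31 without each library in turn.

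Epidermis and periderm markers, from skin cells that a tailbud dissection takes along, leaned downward in *rad21-/-*. Of 24 tested, 15 fell in *rad21-/-* and 3 fell in *rad21+/-*, those 3 being among the 15, where 7.85% and 5.42% of all genes fell. The median was −0.60 in *rad21-/-* and −0.34 in *rad21+/-*. The difference was above 0 in 2 of 24 with a median of −0.22, and 4 had an unadjusted p under 0.05 with a lower response in *rad21-/-* (1.26% of all genes did). As with the cilium genes, this lean is partly built in by the choice of list. *krt4*, a keratin of the surface epithelium (chr6:39308498-39313027), measured 18260, 19790, 22990 and 16390 CPM in *rad21-/-* pools with BIO, against 32440, 32550, 24660 and 28420 CPM in untreated *rad21-/-* pools. Values in *rad21+/-* pools were 20710, 21130, 20290 and 20200 CPM with BIO, against 21390, 20800, 26870 and 30520 CPM untreated. The *rad21-/-* groups did not overlap, and the untreated *rad21+/-* pools spread from the level of the treated ones to that of untreated *rad21-/-*. The fitted response was −0.61 (SE 0.14, adjusted p = 0.00717) in *rad21-/-* and −0.27 (adjusted p = 0.215) in *rad21+/-*, and the difference was −0.33 (95% interval −0.74 to 0.07).

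*cyt1*, another keratin gene of the skin (chr19:5362420-5364649), measured 3465, 2878, 3172 and 2705 CPM in *rad21-/-* pools with BIO, against 6098, 5151, 3458 and 5151 CPM in untreated *rad21-/-* pools. *cyt1* measured 4108, 3419, 3207 and 3674 CPM in *rad21+/-* pools with BIO, against 4099, 3000, 4139 and 5068 CPM in untreated *rad21+/-* pools. In *rad21-/-* the lowest untreated pool, replicate 3, was just below the highest treated one, and the *rad21+/-* groups overlapped throughout. The difference was −0.52 (95% interval −0.99 to −0.05). *cyt1l* (−0.50, 95% interval −0.94 to −0.06) and the annexin gene *anxa1c* (−0.44, 95% interval −0.84 to −0.05) had differences of that size. The adhesion genes *epcam* and *cdh1* fell in both genotypes, *epcam* by 0.61 and 0.36 and *cdh1* by 0.43 and 0.35, and so did *krt18b*, by 1.21 and 1.24 with a difference of 0.03. The *rad21+/-* calls of *epcam* and *cdh1* were lost in 4 and 8 of 16 omissions of 1 library. The 15 calls became 9 without *rad21-/-* BIO replicate 4 or untreated replicate 2, and 4, 4 and 7 without replicates 1, 2 and 4 of all 4 groups. The median difference was −0.36 to −0.12 without each library in turn, and −0.01 without replicate 1 of all 4 groups. The part of the epidermal share in other results was not tested. Fragments that mapped to several places were not counted, so levels of near-identical keratin, globin, heat shock and hatching enzyme genes are uncertain.

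Yolk cell markers had medians below 0 in both genotypes, −0.18 in *rad21-/-* and −0.54 in *rad21+/-*, and differed from the epidermal markers in the sign of the genotype difference. Of 15 tested, 2 fell in *rad21+/-* (5.42% of all genes fell) and 0 changed in *rad21-/-* (edgeR's quasi-likelihood test). At an unadjusted p under 0.05 the counts were 0 in *rad21-/-* and 11 in *rad21+/-*, and DESeq2 called 0 and 7, voom 0 and 3 and the replicate block 1 and 4. The difference was above 0 in 14 of the 15 with a median of 0.36. *rbp4*, a retinol carrier gene, fell by 0.69 in *rad21+/-* and measured −0.27 in *rad21-/-* (difference 0.41, 95% interval −0.18 to 1.00). The 15 markers summed to 1939 to 2613 CPM in *rad21-/-* pools with BIO, against 2247 to 2730 CPM in untreated *rad21-/-* pools. In *rad21+/-* pools the sum was 2601 to 3111 CPM with BIO, against 2799 to 3625 CPM untreated. Both *rad21+/-* calls were lost without *rad21+/-* BIO replicate 2 or BIO replicate 4, and with all 32 libraries in the fit, and 1 to 4 genes were called without each of the other libraries. The hatching gland enzyme gene *he1.3* fell by 3.12 in *rad21-/-* and by 2.80 in *rad21+/-*, with a difference of −0.32 (95% interval −1.56 to 0.92).

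**Figure D4:**
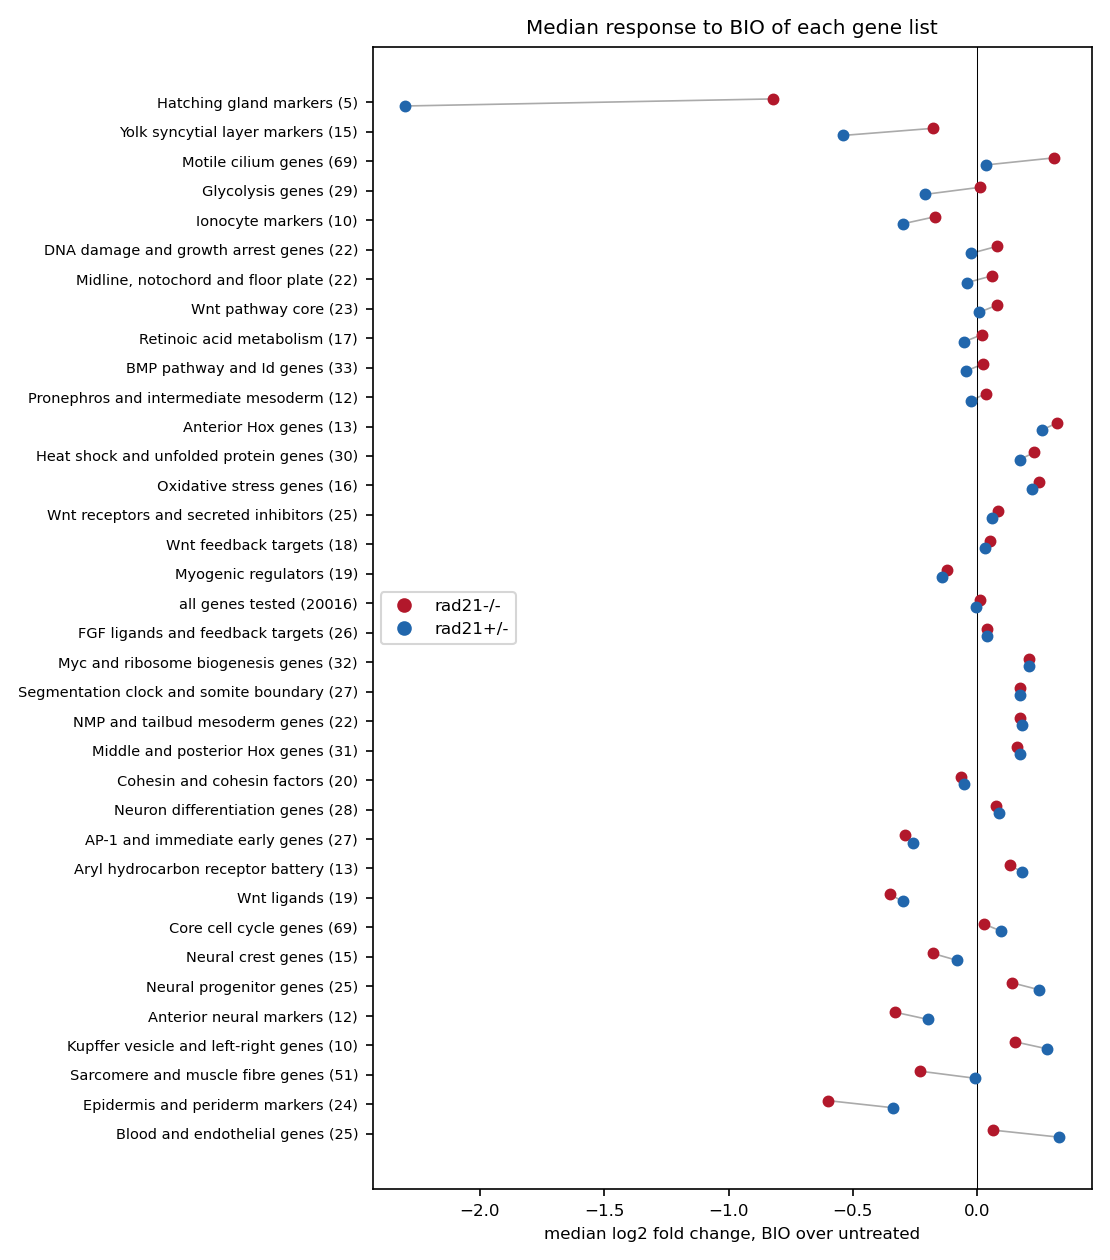
Median log2 fold change with BIO (x axis) of each gene list (number of tested genes in brackets) in *rad21-/-* (red) and *rad21+/-* (blue), sorted by the gap between the medians. Motile cilium genes stand at 0.31 in *rad21-/-* and 0.036 in *rad21+/-*, epidermal markers at −0.60 and −0.34, and Wnt feedback genes near 0 in both.

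Of 32 Myc and ribosome biogenesis genes, 8 rose in *rad21-/-* and 9 in *rad21+/-*, and none fell, with a median of 0.21 in both, where 3.72% of all genes rose in *rad21-/-* and 3.19% in *rad21+/-*. With the replicate block 13 rose in each genotype, where 6.94% and 7.21% of all genes rose. The nucleolar chaperone gene *npm1a* (chr10:22034477-22045119) measured 1075, 1121, 1025 and 1109 CPM in *rad21-/-* pools with BIO, against 765, 697, 750 and 789 CPM in untreated *rad21-/-* pools. *npm1a* measured 1210, 1276, 1264 and 1268 CPM in *rad21+/-* pools with BIO, against 921, 1022, 880 and 837 CPM in untreated *rad21+/-* pools. BIO pools were above untreated pools in both genotypes with no overlap, by 0.53 in *rad21-/-* and 0.46 in *rad21+/-*, and the difference was 0.07 (95% interval −0.15 to 0.30). Of 30 heat shock and protein folding genes, 8 rose in *rad21-/-* and 3 in *rad21+/-*, all 3 among the 8, with a median difference of 0.07. With the replicate block 11 rose in *rad21-/-* and 6 in *rad21+/-*. The mitochondrial chaperonin genes *hspd1* (0.32 in *rad21-/-* and 0.44 in *rad21+/-*) and *hspe1* (0.30 and 0.45) were called in both.

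Of 69 core cell cycle genes, 4 rose and 8 fell in *rad21-/-*, and 9 rose and 4 fell in *rad21+/-*, with 8 shared and a median difference of −0.051. Over all genes 3.72% rose and 7.85% fell in *rad21-/-*, and 3.19% rose and 5.42% fell in *rad21+/-*. With the replicate block 9 rose and 8 fell in *rad21-/-*, where 6.94% of all genes rose and 9.72% fell. In *rad21+/-* 15 rose and 8 fell with the block, where 7.21% of all genes rose and 7.25% fell. The replication clamp gene *pcna* (chr10:40821804-40826657) measured 636, 609, 601 and 594 CPM in *rad21-/-* pools with BIO, against 544, 499.7, 469 and 517 CPM in untreated *rad21-/-* pools. The *rad21+/-* pools held 832, 756, 745 and 753 CPM with BIO, against 567, 632, 602 and 648 CPM untreated. Treated pools were above untreated ones in both genotypes, by 0.27 in *rad21-/-* and 0.33 in *rad21+/-*, and the difference was −0.07 (95% interval −0.28 to 0.15). The kinetochore genes *cenpe* and *cenpf* fell by 0.46 and 0.52 in *rad21-/-* and by 0.41 and 0.47 in *rad21+/-*, calls that were lost with the exon length trend removed. *rrm2*, a subunit of ribonucleotide reductase, was the one cell cycle gene with an unadjusted p under 0.05 for the difference (−1.29, 95% interval −2.14 to −0.45), from responses of −0.70 and 0.59 that passed in neither genotype.

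Genes were also ranked by p of the difference, and 12 in each direction whose mean log2 CPM was 1 or more were examined. None passed adjustment. *ascl1a*, a proneural transcription factor gene (chr4:17417111-17419193), led those with a higher response in *rad21-/-*. It measured 0.886, 1.07, 1.18 and 1.43 CPM in *rad21-/-* pools with BIO, against 0.681, 0.503, 0.715 and 0.669 CPM in untreated *rad21-/-* pools. *ascl1a* measured 3.02, 3.06, 4.90 and 4.27 CPM in *rad21+/-* pools with BIO, against 4.76, 4.97, 3.79 and 4.41 CPM in untreated *rad21+/-* pools. The *rad21-/-* groups were apart but far below both *rad21+/-* groups, which overlapped. Its log2 response was 0.82 (SE 0.21, adjusted p = 0.0171) in *rad21-/-* and −0.24 (adjusted p = 0.445) in *rad21+/-*, and the difference was 1.06 (95% interval 0.47 to 1.65). The genotype difference in *ascl1a* was −1.74 with BIO and −2.81 without it.

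*plekhn1* (chr23:23232136-23252668) measured 104, 87.9, 88.5 and 83.7 CPM in *rad21-/-* pools with BIO, against 78.5, 73.5, 78.5 and 80.3 CPM in untreated *rad21-/-* pools. Values in *rad21+/-* pools were 95.02, 95.2, 84.4 and 86.7 CPM with BIO, against 122, 119, 90.5 and 102 CPM untreated. The genotypes were apart untreated, with *rad21-/-* lower by 0.48 on the log2 scale (adjusted p = 0.00149), and overlapped with BIO (0.01, adjusted p = 0.968). Neither response passed alone (0.23 in *rad21-/-* and −0.26 in *rad21+/-*), and the difference was 0.49 (95% interval 0.22 to 0.76). *mdm2*, described above, was among these 12, as were the cilium gene *morn3* (0.84, 95% interval 0.27 to 1.41) and the BMP effector gene *smad9* (0.44, 95% interval 0.14 to 0.74).

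Among genes with a lower response in *rad21-/-*, *cckar*, a receptor for cholecystokinin (chr7:62229075-62244744), measured 1.81, 1.93, 2.76 and 1.97 CPM in *rad21-/-* pools with BIO, against 6.57, 7.90, 4.69 and 10.3 CPM in untreated *rad21-/-* pools. *cckar* measured 9.69, 10.2, 8.55 and 7.10 CPM in *rad21+/-* pools with BIO, against 13.95, 8.42, 17.03 and 15.18 CPM in untreated *rad21+/-* pools. The treated *rad21-/-* pools were below all others, and the *rad21+/-* groups overlapped. The log2 fold change was −1.79 (SE 0.24, adjusted p = 0.000256) in *rad21-/-* and −0.61 (adjusted p = 0.0946) in *rad21+/-*, and the difference was −1.18 (95% interval −1.87 to −0.49). *col28a2a*, a collagen gene (chr9:48297412-48371379), measured 173, 166, 144 and 178 CPM in *rad21-/-* pools with BIO, against 369, 343, 282 and 322 CPM in untreated *rad21-/-* pools. *col28a2a* measured 157, 159, 166 and 175 CPM in *rad21+/-* pools with BIO, against 246, 131, 233 and 204 CPM in untreated *rad21+/-* pools. The *rad21-/-* groups were apart and the *rad21+/-* groups overlapped. The genotypes were 0.01 apart in *col28a2a* with BIO (adjusted p = 0.989) and 0.69 apart untreated, with *rad21-/-* higher (adjusted p = 0.00274), and the difference in response was −0.69 (95% interval −1.10 to −0.27).

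The smallest p of all 20016 genes, 0.000103, belonged to the LIM homeobox gene *lhx6b* (chr5:64893630-64900552), which was too low for the ranking above and was singled out for its p. It measured 0.151, 0.198, 0.333 and 0.187 CPM in *rad21-/-* pools with BIO, against 0.0220, 0.0559, 0.0631 and 0.0692 CPM in untreated *rad21-/-* pools. The *rad21+/-* pools held 0.122, 0.123, 0.139 and 0.0865 CPM with BIO, against 0.149, 0.312, 0.331 and 0.216 CPM untreated. BIO pools were above untreated ones in *rad21-/-* and below them in *rad21+/-*, at a level of few fragments per library. The fitted response was 2.01 (SE 0.47, adjusted p = 0.00968) in *rad21-/-* and −1.07 (adjusted p = 0.112) in *rad21+/-*, and the difference was 3.08 (95% interval 1.76 to 4.40).

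**Figure D5:**
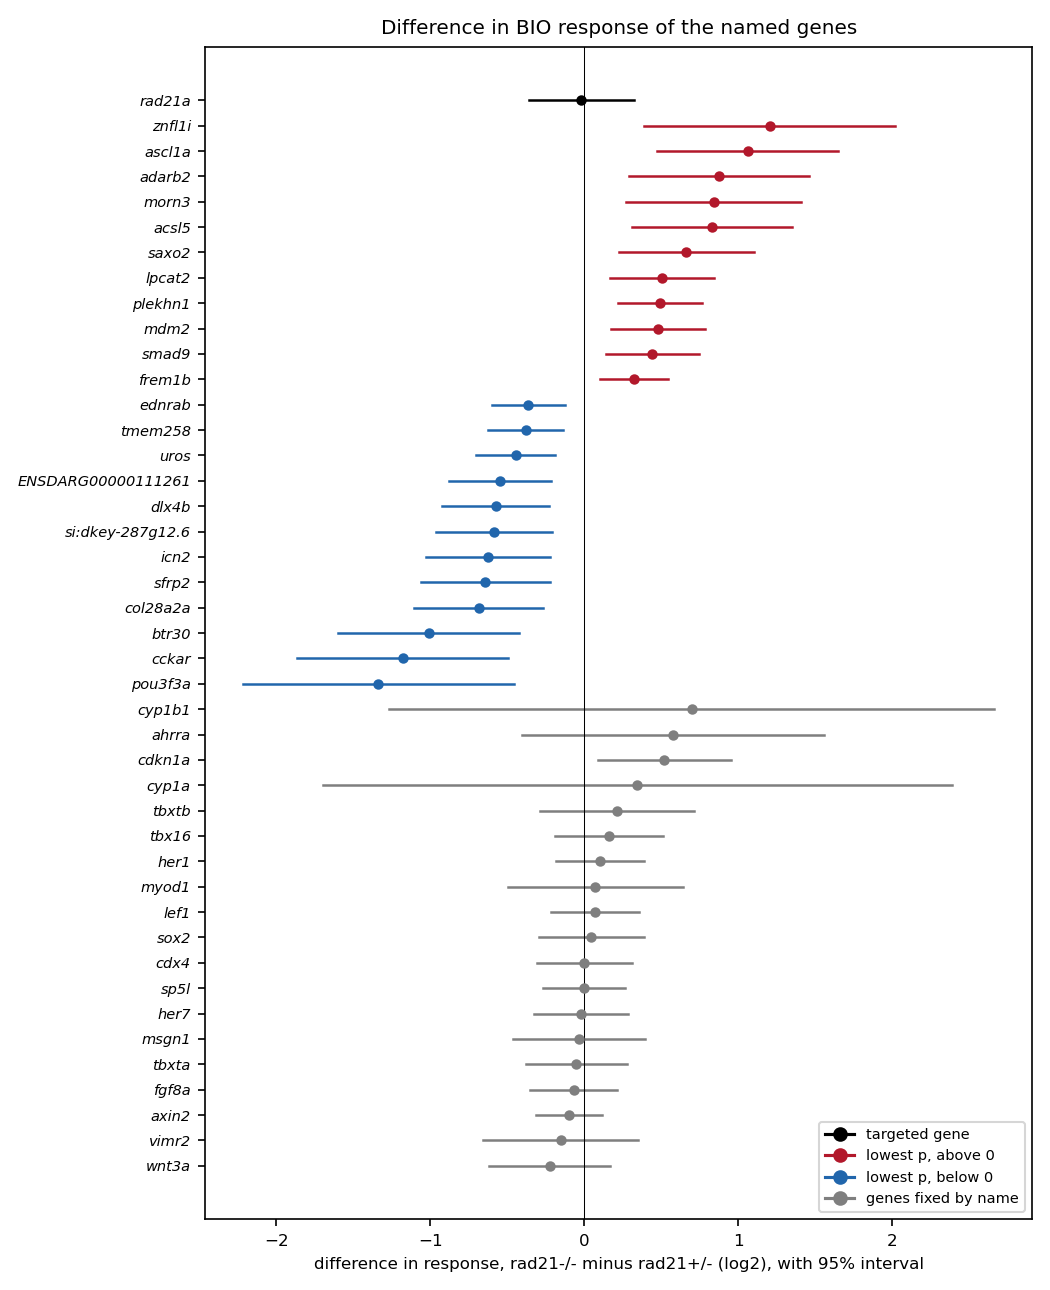
Difference in BIO response, *rad21-/-* minus *rad21+/-* (log2, points, with 95% intervals as bars), for *rad21a* (black), genes of lowest p above 0 (red) and below 0 (blue), and genes fixed by name (grey). The intervals of *axin2*, *lef1*, *sp5l*, *tbxta*, *msgn1* and *sox2* hold 0 and stay within 0.5 log2 units of it, and those of *cyp1a* and *cyp1b1* are wide.

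Among the genes called, the gap between the genotypes was similar with and without BIO. With BIO, 2013 genes (10.1%) differed between *rad21-/-* and *rad21+/-*, of which 773 (3.86%) were higher and 1240 (6.2%) lower in *rad21-/-*. Untreated, 2234 genes (11.2%) differed, of which 894 (4.47%) were higher and 1340 (6.69%) lower. Genes called in both states numbered 1407 (475 higher, 932 lower and 0 opposite), which is 69.9% of those called with BIO and 63% of those called untreated. Over the 2840 genes called in either state the median absolute gap was 0.6 with BIO and 0.626 untreated, and Pearson's r across genes was 0.903. These genes were chosen for a gap. Over all 14115 genes whose mean log2 CPM was 1 or more, the medians were 0.125 and 0.134. Of these, 74.9% had the same sign in both states, with a Pearson's r of 0.847 and a Spearman's rho of 0.696. In the Wnt lists the counts of genes lower in *rad21-/-* were close with and without BIO, while the medians moved somewhat. Of 18 Wnt feedback genes, 9 were lower in *rad21-/-* with BIO and 10 untreated, with medians of −0.48 and −0.65. Of 19 ligand genes, 6 were lower with BIO and 7 untreated, with medians of −0.3 and −0.22.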

How the data were processed

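Poly(A) RNA of pooled tailbuds was sequenced after stranded library preparation. The authors used Cutadapt for trimming, HISAT2 for alignment to GRCz11 and SAMtools for sorting, and counted fragments per Ensembl 98 gene with featureCounts (1.5.3 per the file header). The deposited values are raw counts per gene, with no normalization. Of 32057 genes, 20016 passed edgeR's filter on low counts over the 16 libraries. Counts were scaled by TMM and tested in edgeR 4.0.16 (R 4.3.3) with a quasi-likelihood test on 4 group means, and the difference in response was a contrast of the 4. P-values were adjusted by Benjamini-Hochberg over all 20016 genes and called at 5% FDR. Log2 CPM for plots and lengths used a prior count of 2. Alternatives were DESeq2 1.42.0, limma 3.58.1 voom, RLE scaling, no filter, all 32 libraries, a replicate block, removal of an exon length trend (added after seeing the data) and omission of each library. Deviations of same-numbered pools from their group means correlated at 0.19 to 0.44 between *rad21+/-* BIO and untreated and at 0.25 to 0.52 between the genotypes with BIO, with all 4 pairs over 0.1 in each. Values with the replicate number as a block are given, for both genotypes, beside counts of gene lists whose *rad21+/-* counts they change. They are also given beside some single genes. For the *rad21-/-* response 2 of 4 pairs were over 0.1. Named genes were *rad21a*, genes fixed by name, list members that passed a test or had an unadjusted p under 0.05 for the difference, and the 12 of lowest p in each direction at an average log2 CPM of at least 1. A few genes were named outside this rule, among them the FOXQ1 orthologue, *ugt1a1*, *lama5*, *fras1*, *cyp24a1* and *lhx6b*. The comparison, lists and rule were chosen with earlier results of these data known. Gene names were matched for 29003 of 32057 identifiers, and 1504 of these are names of orthologues. The scripts were tested on simulated counts. Wild type and *stag2b* libraries were otherwise not used here. Some genes are not reported here and were left out of the lists.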

Additional observations from a re-analysis of the deposited data

Results flagged for a closer look

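Over the 28 genes whose pools were printed, 8 of 112 groups of 4 pools held 1 pool far from the other 3 by Dixon's criterion at 95%, which chance gives in about 1 group of 20. *rad21a* stood at 68.8 CPM in *rad21-/-* BIO replicate 1, against 48.3 to 50.6 CPM in the other 3 pools, and at 336 CPM in *rad21+/-* untreated replicate 3, against 396 to 401 CPM. *sp5l* stood at 370.2 CPM in *rad21-/-* BIO replicate 1, against 303 to 312 CPM. *wnt3a* stood at 3.35 CPM in *rad21-/-* BIO replicate 3, against 2.67 to 2.76 CPM, and *cckar* at 2.76 CPM in the same pool, against 1.81 to 1.97 CPM. *notch1b* stood at 92.8 CPM in *rad21-/-* untreated replicate 2, against 61.2 to 63.8 CPM, and *nfe2l2a* at 8.90 CPM in *rad21-/-* untreated replicate 1, against 10.6 to 10.9 CPM. *pcna* stood at 832 CPM in *rad21+/-* BIO replicate 1, against 745 to 756 CPM.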

How the results depend on the processing

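The difference in response gave 0 genes at 5% FDR with DESeq2, voom, RLE scaling, no filter, a replicate block, an exon length trend removed and without each library, and 1 gene (*lhx6b*) with all 32 libraries. The BIO response in *rad21-/-* gave 2317 genes, 3211 with DESeq2, 1532 with all 32 libraries and 467 to 2464 with a library or a replicate number left out. In *rad21+/-* it gave 1723 genes, 2724 with DESeq2, 775 with all 32 libraries and 61 to 1962 with omissions, 61 being without replicate 4 of all groups. The genotype gap gave 1085 to 2093 genes with BIO and 1191 to 2273 untreated with omissions, and 1577 to 2624 and 1787 to 2763 under the other settings. Over genes called in either genotype, the share with the larger response in *rad21-/-* was 44.2% to 91.6% (63.8% with all libraries), and the ratio of median responses 0.94 to 1.57 (1.2). Both partly follow the numbers called in each genotype. Both turned round without *rad21-/-* untreated replicate 2 (46.7% and 0.985) and without replicate 2 of all groups (44.2% and 0.94). Of 210 called gene values, 102 kept their call in every omission of 1 library and 122 under every other setting, and none changed sign as a call. The causes were not tested.

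Groups shared replicate numbers, and nothing ties equal numbers to a clutch or day. Over all 24 same-numbered pairs the deviations correlated at −0.27 to 0.58 (median 0.18, 14 over 0.1), and 17 of 48 pool comparisons were highest with their own number. With the number as a block the calls were 3335 in *rad21-/-*, 2894 in *rad21+/-* and 0 for the difference. The difference had a median standard error of 0.211 over all tested genes, so that for 71.7% of them the 95% interval lay within 1 log2 unit of no difference.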

Other observations

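Of 25 neural progenitor genes, 3 rose in *rad21-/-* and 4 in *rad21+/-*, with a median difference of −0.056, where 3.72% and 3.19% of all genes rose. With the replicate block 7 rose in *rad21-/-* and 6 in *rad21+/-*, where 6.94% and 7.21% of all genes rose. The motor neuron gene *mnx1*, from the list of neuron differentiation genes, rose by 0.66 in *rad21-/-* and 0.61 in *rad21+/-*, and the LIM homeobox gene *lhx1a* by 0.56 in both. Of 27 AP-1 and immediate early genes, 5 fell in *rad21-/-* (7.85% of all genes fell) and 0 changed in *rad21+/-* by edgeR's quasi-likelihood test. Medians were −0.29 and −0.26, and 5 had an unadjusted p under 0.05 in *rad21+/-*. With the replicate block 6 of the genes fell in *rad21-/-* and 2 in *rad21+/-*. Among them *klf4* fell by 1.1 in *rad21-/-* beside −0.50 in *rad21+/-* (95% interval −1.18 to −0.03 for the difference), and *klf2b* by 0.76 beside −0.43 (adjusted p = 0.085 in *rad21+/-*, and 0.0378 with the block). Of 25 blood and endothelial genes, 0 changed in *rad21-/-* by edgeR's test (4 at an unadjusted p under 0.05) and 2 rose in *rad21+/-* (3.19% of all genes did). The 2 were the regulators *tal1* (0.45, beside 0.13 in *rad21-/-*) and *etsrp* (0.51, beside 0.31). With the replicate block 1 fell in *rad21-/-* and 6 rose in *rad21+/-*, where 9.72% of all genes fell and 7.21% rose in the same order. The difference was above 0 in 3 of the 25, beside 9738 of 20016 over all genes. Its median was −0.2, and −0.35 to −0.024 without each library in turn. By edgeR's test 1 of the 25 had an unadjusted p under 0.05 for it.

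The laminin gene *lama5* fell by 1.3 in *rad21-/-* and 0.87 in *rad21+/-* (difference −0.43, 95% interval −0.82 to −0.03), and the matrix gene *fras1* by 1.41 and 0.85. *lama5* and *fras1* have 11542 and 13772 bases of exon. The vitamin D hydroxylase gene *cyp24a1* fell by 1.69 in *rad21-/-* and by 1.70 in *rad21+/-*.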
